A study of Mus musculus with 6 samples.

Results

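The Myc, Max and Mxd network was described by 11 array probes for its 9 genes, Myc, Mycn, Mycl, Max, Mxd1, Mxd3, Mxd4, Mxi1 and Mga, out of 55681 probes on each array. Members were chosen by symbol alone: a non-control probe was taken when the transcript accession in the scanner file belongs to one of the 9 genes in RefSeq. Mxd1 and Mxd4 had a pair of probes each and every other member had 1. Of the 9 genes, 8 entered the test, for which every array of one group or the other had to be well above background. Mxi1 was too dim to enter it.

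The cells were dissociated from dorsal telencephalon, which forms the cerebral cortex, of C57BL/6 mice at embryonic day 14.5. All animals of both groups were heterozygous for a GFP knock-in at Tis21 (Btg2), a gene whose expression marks cortical progenitors that have switched to producing neurons. Cells in S phase were sorted on DNA content with a vital dye and then split by the reporter into Tis21-GFP positive and negative cells, and gene expression was measured on 3 1-colour arrays of each. A replicate pooled 30 hemispheres of 15 embryos and about 200000 cells, and the authors used the 3 experiment sets they judged best, so p-values measure the spread between those sets. The comparison asks how transcripts of the network differ between the progenitors that have made the switch and the remaining S-phase cells of the same tissue.

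Myc, Mycn and Mycl encode basic helix-loop-helix leucine zipper proteins that bind DNA only as a dimer with Max and drive genes of ribosome production, metabolism and cell growth. The Mxd proteins and Mxi1 also pair with Max, bind the same E-box sequence, and recruit the Sin3 and histone deacetylase corepressor to silence such genes. Mycn is the Myc gene known for expanding neural progenitor pools in the embryonic brain, whereas Mxd genes are known for rising as cells leave the cycle, apart from Mxd3, which is known from precursors that still divide. Mga is a large Max partner that belongs to a variant Polycomb complex.

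RefSeq promoter sequences (GRCm38.p6, 250 bases before to 50 after a gene's start) matched 8 of the 9 members, all but Myc, in 10 windows. Each window was searched on both strands for 4 motifs: the canonical E-box CACGTG bound by Max dimers, the E2F sites TTTGGCGC and GGCGGGAA, and the proneural E-box CAGATG. Of 32851 promoters in the table, 7.15% hold CACGTG, 0.514% TTTGGCGC, 2.19% GGCGGGAA and 17.2% CAGATG, and none of the hits described here overlaps another motif. The 4 windows below are shown because they hold a canonical E-box or an E2F motif and come from members that did (Mxd3, Mxd4) and did not (Mycn, Max) pass the test. Each runs 5′ to 3′ from 230 bases before to 10 bases after the gene's start, all lie on the minus strand, and capitals mark CACGTG, TTTGGCGC or GGCGGGAA. Their positions are chr12:12941827-12942066 for Mycn, chr12:76962239-76962478 for Max, chr13:55329722-55329961 for Mxd3 and chr5:34187701-34187940 for Mxd4.
Mycn: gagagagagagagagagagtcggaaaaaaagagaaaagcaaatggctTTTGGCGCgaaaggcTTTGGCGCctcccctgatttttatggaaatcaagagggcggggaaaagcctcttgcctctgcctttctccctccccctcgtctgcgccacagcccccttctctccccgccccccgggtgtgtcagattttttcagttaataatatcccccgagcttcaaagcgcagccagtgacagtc
Max: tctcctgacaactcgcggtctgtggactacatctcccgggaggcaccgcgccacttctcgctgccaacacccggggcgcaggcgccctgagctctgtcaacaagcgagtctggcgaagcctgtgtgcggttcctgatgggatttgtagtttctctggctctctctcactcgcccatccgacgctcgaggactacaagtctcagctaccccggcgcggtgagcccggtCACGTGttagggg
Mxd3: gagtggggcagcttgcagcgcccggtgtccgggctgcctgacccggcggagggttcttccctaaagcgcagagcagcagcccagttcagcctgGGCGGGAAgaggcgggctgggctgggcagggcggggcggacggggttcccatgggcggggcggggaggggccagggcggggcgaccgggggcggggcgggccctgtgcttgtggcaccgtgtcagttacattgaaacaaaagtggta
Mxd4: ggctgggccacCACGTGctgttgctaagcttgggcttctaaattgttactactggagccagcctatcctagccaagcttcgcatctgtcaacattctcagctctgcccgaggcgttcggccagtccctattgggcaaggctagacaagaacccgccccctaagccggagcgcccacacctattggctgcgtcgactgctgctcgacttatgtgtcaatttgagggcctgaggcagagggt

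Mycn holds TTTGGCGC at both 183 and 168 bases before its start. Max holds CACGTG 3 bases before its start, across the start itself, and Mxd4 holds it 219 bases upstream. Mxd3 holds GGCGGGAA 137 bases upstream. CAGATG lies 149 bases before the Mxd4 start, 81 bases before an Mxi1 start, and just after the Mycn start. None of the 4 motifs is in the windows of Mycl, Mxd1 or Mga. These matches describe letters only.

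Across the 8 tested members, the antagonists Mxd1, Mxd3 and Mxd4 and the activator gene Mycl were higher in Tis21-GFP positive cells, and Myc, Mycn, Max and Mga did not pass the test. The 4 differences lay between 0.58 and 0.83 on the log2 scale, or 1.50-fold to 1.78-fold. A gene is called here when its adjusted p is under 0.05 (limma, Benjamini-Hochberg over all 13132 tested genes). Of the 8 members, 4 were called higher, against 12.8% of all tested genes, and 0 were called lower, against 13.1%; at an unadjusted p under 0.05 the limma fit also gave 4 higher and 0 lower, against 23.2% and 17.4% of all tested genes. The same 4 members, and no other, had 3 positive arrays above all 3 negative arrays, an order found in 28.1% of all genes, and 0 had the reverse order, found in 18.6%. The median difference was 0.43 over the 8 members and 0.12 over all tested genes. Fewer cells of a type and less RNA per cell cannot be told apart in such bulk samples.

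**Figure D1:**
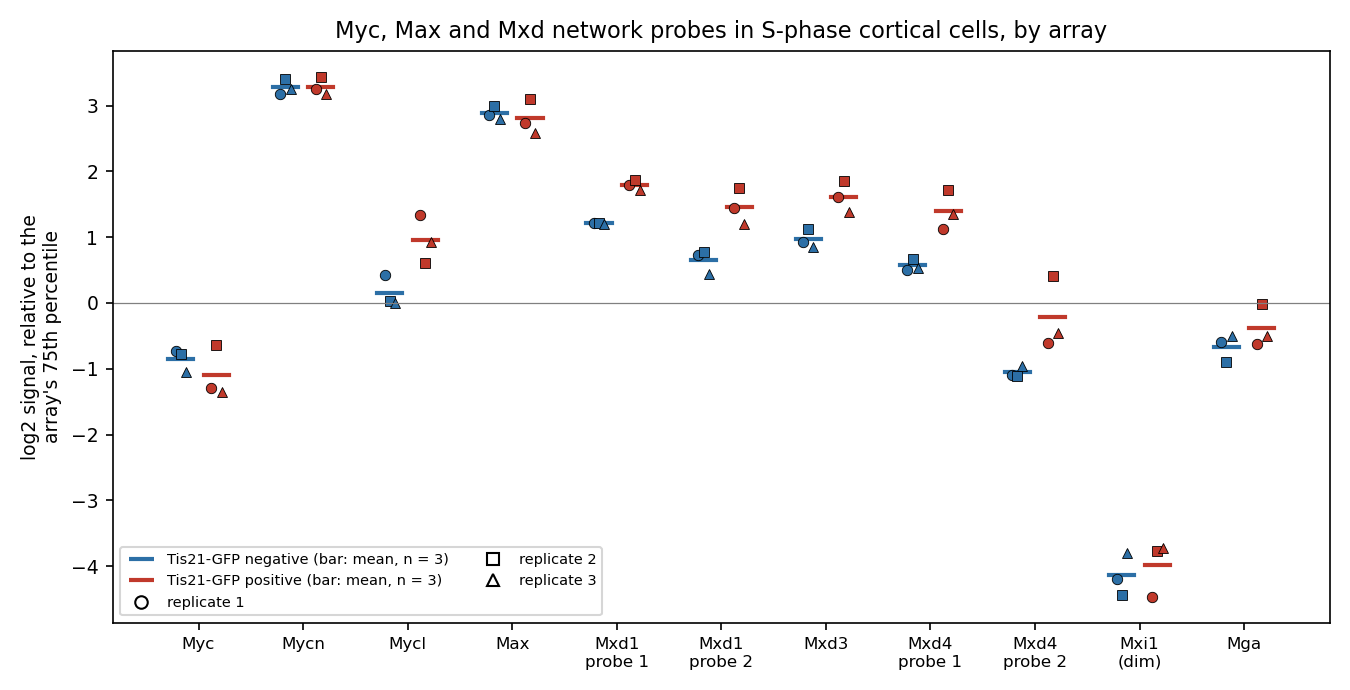
Log2 signal of each of the 11 network probes relative to the array's 75th percentile, per array; symbols mark the replicate number, bars the group mean (n = 3 arrays per group). The 3 positive arrays lie above the 3 negative arrays for Mycl, Mxd3 and both probes of Mxd1 and Mxd4, and the groups overlap for Myc, Mycn, Max, Mxi1 and Mga.

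Levels below are log2 signals relative to the 75th percentile of each array, listed for replicates 1, 2 and 3, and are compared between groups only within a probe. Mycn, the Myc gene of neural progenitors, stood at 3.18, 3.40 and 3.25 on the negative arrays and at 3.25, 3.44 and 3.17 on the positive arrays. The groups overlapped almost completely. Its difference was 0.01 ± 0.14 (SE, n = 3 per group, adjusted p = 0.962), with a 95% interval from -0.31 to 0.33. The sign of this difference turned under several scalings, to -0.20 under quantile normalization.

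Myc, the founding member and a driver of growth in many tissues, stood at -0.73, -0.77 and -1.05 on the negative arrays and at -1.28, -0.64 and -1.35 on the positive arrays. Positive replicate 2 was the highest of all 6, while the other two positive arrays were the lowest. The difference was -0.24 ± 0.21 (SE, n = 3 per group, adjusted p = 0.419), and its 95% interval ran from -0.73 to 0.25.

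Mycl, the third Myc activator, was called higher. It stood at 0.42, 0.03 and 0.00 on the negative arrays and at 1.34, 0.61 and 0.93 on the positive arrays. All 3 positive arrays were higher than all 3 negative arrays, with the widest spread of any called member. The difference was 0.81 ± 0.21 (SE, n = 3 per group, adjusted p = 0.0273), or 1.75-fold. The call was kept under 10 of 15 alternative settings, with adjusted p between 0.0088 and 0.0982. It was lost when the 75th percentile was taken over probes detected on all arrays (0.63), without a filter on dim probes (0.81), and without positive replicate 1 (0.62), negative replicate 2 (0.75) or negative replicate 3 (0.73).

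Max, the partner that every Myc and Mxd protein needs, stood at 2.86, 3.00 and 2.80 on the negative arrays and at 2.74, 3.10 and 2.58 on the positive arrays. The positive values enclosed the negative ones. The difference was -0.08 ± 0.17 (SE, n = 3 per group, adjusted p = 0.744), with a 95% interval from -0.46 to 0.30, and its sign turned with median centring (0.10) and without positive replicate 3 (0.03).

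Mxd1, the first described Max-binding repressor of the family, was measured by a pair of probes that gave the same direction. The brighter probe stood at 1.22, 1.22 and 1.21 on the negative arrays and at 1.80, 1.87 and 1.72 on the positive arrays. Both groups were tight and well separated. The difference was 0.58 ± 0.12 (SE, n = 3 per group, adjusted p = 0.0109), or 1.50-fold, and Mxd1 was called under all 15 alternative settings, where the difference lay between 0.41 and 0.76 and the highest adjusted p was 0.049. The other probe stood at 0.72, 0.78 and 0.44 on the negative arrays and at 1.44, 1.75 and 1.20 on the positive arrays, and in the fit over 28908 probes its difference was 0.82 ± 0.19 (SE, 3 arrays per group; adjusted p = 0.026 by limma). In that fit 7.51% of probes were called higher and 8.97% lower.

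Mxd3, the family member known from dividing precursors, stood at 0.93, 1.12 and 0.84 on the negative arrays and at 1.61, 1.85 and 1.39 on the positive arrays. The lowest positive array was above the highest negative array. The difference was 0.65 ± 0.16 (SE, n = 3 per group, adjusted p = 0.0217), or 1.57-fold. The call was kept under 10 of 15 alternative settings, with adjusted p between 0.0079 and 0.0871. It was lost without the filter on dim probes (0.65) and without negative replicate 1 (0.63), negative replicate 3 (0.59), positive replicate 1 (0.65) or positive replicate 2 (0.54).

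Mxd4, a repressor known from differentiating cells, showed a difference much like that of Mycl, which was the larger of both under quantile normalization, with the authors' values, and without negative replicate 1 or positive replicate 2. Its brighter probe stood at 0.51, 0.67 and 0.53 on the negative arrays and at 1.12, 1.72 and 1.35 on the positive arrays. The groups did not overlap. The difference was 0.83 ± 0.17 (SE, n = 3 per group, adjusted p = 0.0113), or 1.78-fold, and the call was lost in 1 of 15 settings, without negative replicate 1 (0.80, adjusted p = 0.0511, the highest of a range from 0.0029). The dimmer probe stood at -1.09, -1.11 and -0.96 on the negative arrays and at -0.61, 0.41 and -0.46 on the positive arrays, with positive replicate 2 far above its companions. Its difference of 0.84 ± 0.26 (SE, n = 3 per group) missed the threshold in the probe fit (adjusted p = 0.069).

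Mga, the Max partner of the Polycomb variant, stood at -0.60, -0.89 and -0.50 on the negative arrays and at -0.62, -0.02 and -0.50 on the positive arrays. The single high value was again positive replicate 2. The difference was 0.28 ± 0.19 (SE, n = 3 per group, adjusted p = 0.304), with a 95% interval from -0.17 to 0.73. Mxi1, a repressor of the Mxd family, read -4.19, -4.43 and -3.80 on the negative arrays and -4.46, -3.77 and -3.72 on the positive arrays. It was well above background on 1 of 3 positive and 0 of 3 negative arrays, so no fold is given.

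**Figure D2:**
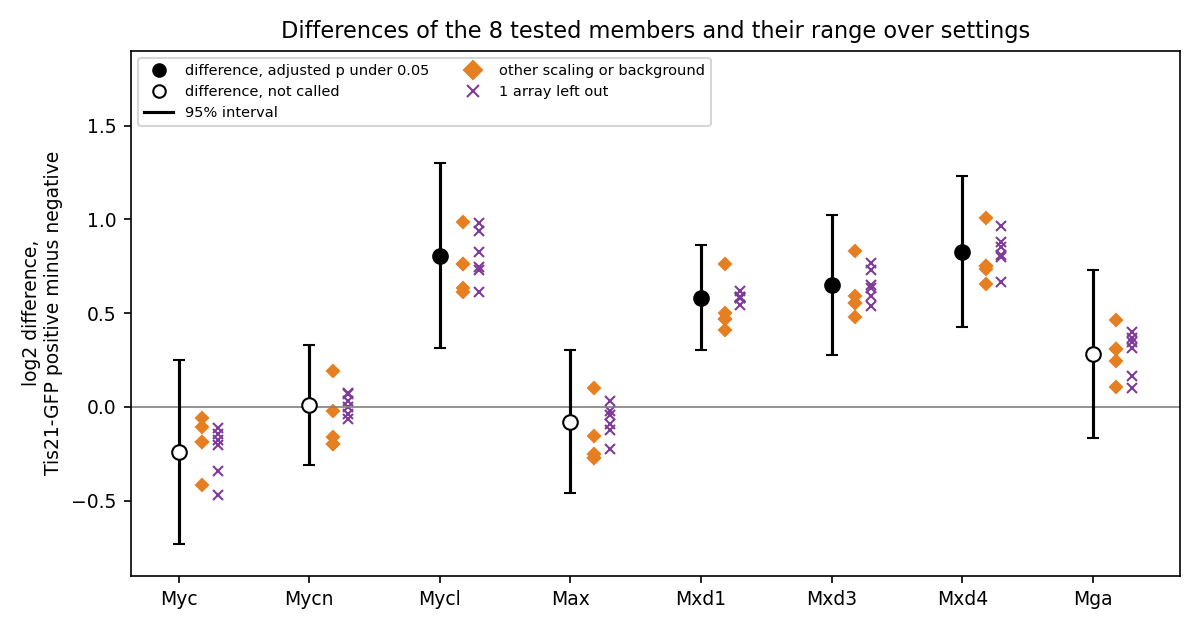
Log2 difference (Tis21-GFP positive minus negative) of the 8 tested members with its 95% interval (n = 3 arrays per group); diamonds give the value under another scaling or background correction, crosses the value with 1 array left out. Mycl, Mxd1, Mxd3 and Mxd4 stay above 0 under all of these, while Mycn and Max change sign. Mycl and the 3 Mxd genes had every positive array above every negative array, so leaving out 1 array could not turn their sign.

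Arrays with the same replicate number resembled each other across genes, so the difference can also be read within a number. For Mxd1 the 3 differences within a number were 0.58, 0.65 and 0.52, and for Mxd3 they were 0.69, 0.72 and 0.54. For Mxd4 they were 0.62, 1.05 and 0.82, and for Mycl 0.92, 0.58 and 0.92. Since the groups of these 4 did not overlap, each such difference had to be positive, and the values show only its size. For Myc they were -0.56, 0.13 and -0.30, and for Mga -0.02, 0.88 and -0.01, so in both the second number stood apart. Positive replicate 2 was the highest positive array for 9 of the 11 member probes and for 45.2% of all tested genes, and its part in the members' spread was not tested.

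A ratio between members on the same array is left unchanged by any scaling that shifts a whole array by 1 constant, though not by quantile normalization. Of the 28 pairs among the 8 tested members, 12 had ratios whose groups did not overlap, against 47% of all pairs of tested genes, so the number of such pairs was near the background. With 3 arrays against 3, the smallest p of an exact two-sided permutation test is 0.1, and the pairs that reached it had a Benjamini-Hochberg value of 0.233 over the 28, so none passed. The 12 included all 9 ratios of Mxd1, Mxd3 or Mxd4 to Myc, Mycn or Max, a grouping made after the values were seen, and these 9 share their members. The log2 ratio of Mxd4 to Max was higher by 0.91 in positive cells, that of Mxd3 to Max by 0.73 and that of Mxd1 to Max by 0.66. Relative to Mycn the same repressors were higher by 0.82, 0.64 and 0.57, and relative to Myc by 1.07, 0.89 and 0.82. By contrast, the ratios of Mycl to the 3 Mxd genes overlapped between groups, with changes of 0.22 against Mxd1, 0.16 against Mxd3 and -0.02 against Mxd4. The other non-overlapping ratios were Myc to Mycl (-1.05), Myc to Mga (-0.52) and Mxd4 to Mga (0.55).

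**Figure D3:**
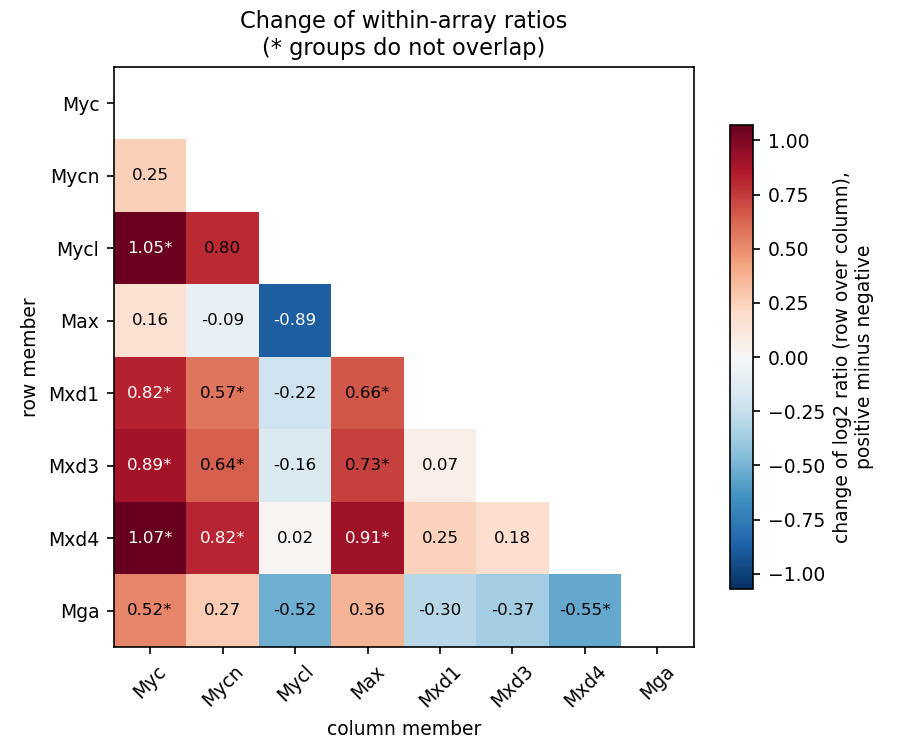
Change of the log2 ratio of the row member to the column member on the same array, Tis21-GFP positive minus negative (means of 3 arrays per group); a star marks ratios whose groups do not overlap. The 9 ratios of Mxd1, Mxd3 and Mxd4 to Myc, Mycn and Max are all positive and starred, and the ratios of Mxd genes to Mycl lie between -0.22 and 0.02.

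The genes most like Mxd4 over the 6 arrays, by Pearson correlation, were Ppp1r7 (0.9981), Hsf2 (0.9972) and Dido1 (0.9967), and 26 genes exceeded 0.99. The 6 points share the difference between groups and the high positive replicate 2, so this is a description only. The differences of these genes were 0.52 for Ppp1r7, 0.57 for Hsf2 and 0.71 for Dido1. These calls were kept under 5, 7 and 7 of 15 alternatives. The difference of Dido1 changed sign, to -0.07 with the mean of its probes and -0.30 under quantile normalization. A gene's brightest probe was chosen anew in each setting, so a value for Dido1 can come from another of its probes.

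Other factors that bind the same E-box or pair with relatives of Max were measured for 6 of 6 genes. Of these, 2 were called higher and 0 lower, against 12.8% and 13.1% of all tested genes, with a median difference of 0.42. At an unadjusted p under 0.05 limma gave 3 higher and 0 lower, against 23.2% and 17.4% of all tested genes. No gene of this list was called (0) without the filter on dim probes or without negative replicate 1, negative replicate 3 or positive replicate 2. Mlx, the Max-like partner of several of these proteins, was higher by 0.62 ± 0.16 (SE, n = 3 per group, adjusted p = 0.0244), and Usf2, which binds the E-box with Usf1, by 0.58 ± 0.14 (adjusted p = 0.0209). Mlx was called under 11 of 15 alternatives (adjusted p from 0.0129 to 0.0959) and Usf2 under 8 (0.0043 to 0.114); Usf2 was also lost without positive replicate 1. Mnt, the broadly expressed Max-binding repressor outside the Mxd family, showed a difference of 0.11 (adjusted p = 0.616), which turned to -0.17 under quantile normalization. It stood at 4.76, 4.86 and 4.67 on the negative and 4.81, 5.10 and 4.70 on the positive arrays, which overlapped. Mnt was added to the named genes after its value was seen.

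The Sin3 and histone deacetylase corepressor that Mxd proteins recruit had 4 of 13 measured genes called higher and 0 lower. All tested genes had 12.8% called higher and 13.1% lower. The list's median was 0.35, which lay between 0.14 and 0.54 under the other scalings. At an unadjusted p under 0.05 limma gave 7 higher and 0 lower, against 23.2% and 17.4% of all tested genes. The histone chaperone Rbbp4 stood at 4.98, 5.19 and 4.97 on the negative arrays and at 5.70, 5.86 and 5.80 on the positive arrays, higher by 0.74 ± 0.13 (SE, n = 3 per group, adjusted p = 0.00549). The deacetylase Hdac2 was higher by 0.70 ± 0.12 (adjusted p = 0.0052), from -0.25, -0.33 and -0.27 to 0.36, 0.50 and 0.37. Both were called under all 15 alternatives. Brms1l, a further subunit, was higher by 0.62, and its call was lost without negative replicate 1 (0.55, adjusted p = 0.061, the highest of a range from 0.0026). The fourth called gene, named after its value was seen, was the scaffold Sin3a itself, higher by 0.48 ± 0.12 (adjusted p = 0.0253). Sin3a was called under 7 of 15 alternatives, with adjusted p between 0.0145 and 0.0925, and was not called without positive replicate 2 or any 1 of the negative arrays. The list's count of 4 was 2 without negative replicate 1.

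Cofactors through which Myc opens chromatin and releases paused polymerase had 1 of 15 genes called higher and 0 lower, with a median of 0.29. Of all tested genes, 12.8% were called higher and 13.1% lower. The count called higher was 3 with normexp and 4 with median centring or the variance trend, where 12.8%, 17.9% and 17.9% of all genes were called higher. The count called lower was 2 under quantile normalization, the percentile over detected probes and the authors' values. At an unadjusted p under 0.05 limma gave 6 higher and 1 lower, against 23.2% and 17.4% of all tested genes. The called gene was Actl6a, an actin-like subunit of several remodelling complexes, higher by 0.67 ± 0.14 (SE, n = 3 per group, adjusted p = 0.00976) and called under all 15 alternatives. The complex of Mga had 2 of 9 genes called higher and 0 lower, against the same 12.8% and 13.1%, with a median of 0.33. At an unadjusted p under 0.05 limma gave 5 higher and 1 lower, against the same 23.2% and 17.4%. Its subunit Rybp was higher by 0.82 ± 0.15 (adjusted p = 0.00558) and called under all 15 alternatives, while the related Yaf2 was higher by 0.53 and called under 6 of 15, with adjusted p between 0.0088 and 0.112, a call kept only without positive replicate 1 among the fits that left out an array.

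Regulators of Myc protein stability had 1 of 16 measured genes called higher and 1 lower, against 12.8% and 13.1% of all tested genes. Their median of 0.18 turned to -0.05 under quantile normalization and -0.06 with the authors' values. At an unadjusted p under 0.05 limma gave 6 higher and 1 lower, against 23.2% and 17.4% of all tested genes. Fbxw7, the ubiquitin ligase subunit that sends phosphorylated Myc and Mycn to degradation, fell. It stood at 1.54, 1.65 and 1.72 on the negative arrays and at 0.69, 1.00 and 0.50 on the positive arrays, so that it differed by -0.91 ± 0.16 (SE, n = 3 per group, adjusted p = 0.00522). The groups were far apart, and Fbxw7 was called under all 15 alternatives. Aurka, a mitotic kinase that shields Mycn from that ligase, was higher by 0.69 ± 0.21 (adjusted p = 0.0446), but was called under only 5 of the 15, with adjusted p between 0.0134 and 0.147, and in none that left out an array. With the replicate number as a block, 4 genes of this list were called higher in place of 1, where 15.4% of all tested genes were called higher.

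Textbook genes that Myc activates showed no common direction in the main fit. Of 28 genes of ribosome biogenesis, 0 were called higher and 2 lower, against 12.8% and 13.1% of all tested genes. The median was -0.02, turning to 0.17 with median centring. It was -0.19 under quantile normalization, with the percentile over detected probes and with the authors' values. At an unadjusted p under 0.05 limma gave 1 higher and 3 lower, against 23.2% and 17.4% of all tested genes. Polr1a, the large subunit of the polymerase that transcribes ribosomal RNA, differed by -0.56 ± 0.13 (SE, n = 3 per group, adjusted p = 0.018), called under 11 of 15 alternatives with adjusted p between 0.0051 and 0.136 and not without negative replicate 2 or 3. Rrp12, a factor of ribosome export, differed by -0.55 ± 0.17 (adjusted p = 0.0483) and was called under 5 of 15, with adjusted p between 0.0204 and 0.203, and not when any array but positive replicate 1 was left out.

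Of 35 genes of growth and metabolism, 4 were called higher and 1 lower, against 12.8% and 13.1% of all tested genes. The median of -0.01 turned to 0.17 with median centring. It was -0.19 with the percentile over detected probes and -0.09 under quantile normalization and with the authors' values. Shmt2, a mitochondrial enzyme of serine and one-carbon metabolism, stood at 2.21, 2.03 and 2.30 on the negative arrays and at 3.07, 3.25 and 3.15 on the positive arrays. The difference was 0.98 ± 0.14 (SE, n = 3 per group, adjusted p = 0.00175), or 1.97-fold, and Shmt2 was called under all 15 alternatives. Cdk4, the kinase that drives entry into S phase with D cyclins, was higher by 0.77 ± 0.15 (adjusted p = 0.00881), and Paics, an enzyme of purine synthesis, by 0.58 ± 0.12 (adjusted p = 0.0124). Cdk4 fell short of the call under quantile normalization and the authors' values (0.50 each, adjusted p up to 0.0513 and from 0.001 elsewhere), as did Paics (0.34 and 0.33), which was also not called without negative replicate 1 (0.53; adjusted p from 0.0024 to 0.0645). The remaining called genes, named after their values were seen, were the helicase Eif4a1 at 0.59 and the cyclin gene Ccnd2 at -0.59. Eif4a1 was called under 11 of 15 alternatives (adjusted p from 0.0031 to 0.102) and not without negative replicate 1 or 3. Ccnd2 was called under 10 (0.0025 to 0.139) and not with median centring (-0.40), without the filter on dim probes, or without negative replicate 2, negative replicate 3 or positive replicate 3. The count of 4 higher was 2 without negative replicate 1. Under quantile normalization and the authors' values this list had 1 gene called higher and 9 lower. All tested genes had 8.58% and 8.56% called higher under these settings, and 13.1% lower under both.

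Of 9 genes that Myc is known to repress, 7 were tested. Of these, 1 was called higher and 3 lower, against 12.8% and 13.1% of all tested genes. At an unadjusted p under 0.05 limma gave 2 higher and 5 lower, against 23.2% and 17.4%. The median difference was -0.67 and was negative under every alternative. Ndrg2 stood at 4.44, 4.44 and 4.32 on the negative arrays and at 3.20, 2.86 and 2.79 on the positive arrays, and differed by -1.45 ± 0.15 (SE, n = 3 per group, adjusted p = 0.000527). Gas1, a membrane protein of growth arrest, stood at 1.98, 1.89 and 1.87 on the negative and 0.57, 0.72 and 0.32 on the positive arrays, and differed by -1.38 ± 0.15 (adjusted p = 0.000561). Thbs1, a secreted matrix protein, differed by -1.75 ± 0.29 (adjusted p = 0.0038). All of these fell under all 15 alternatives. The gene called higher, named after its value was seen, was the stress-response gene Gadd45a, at 1.01 ± 0.31 (adjusted p = 0.0478), whose groups overlapped. Gadd45a was called under 7 of 15 alternatives, with adjusted p between 0.0035 and 0.154, and not without negative replicate 1 or 3 or positive replicate 1 or 2. The tested markers of microglia (10 of 10) and of meninges and mesenchyme (8 of 8) were lower in the same cells, with medians of -2.39 and -3.51. So were 8 of 10 radial glia markers (median -0.96) and 5 of 7 tested endothelium and pericyte markers (median -1.54). Some of the tested meninges, mesenchyme, endothelium and pericyte markers were above background on no positive array. Such a marker could enter the test only through the negative arrays, so its being lower was set by the filter. The part of any of these markers in the fall of Ndrg2, Gas1 and Thbs1 was not tested.

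**Figure D4:**
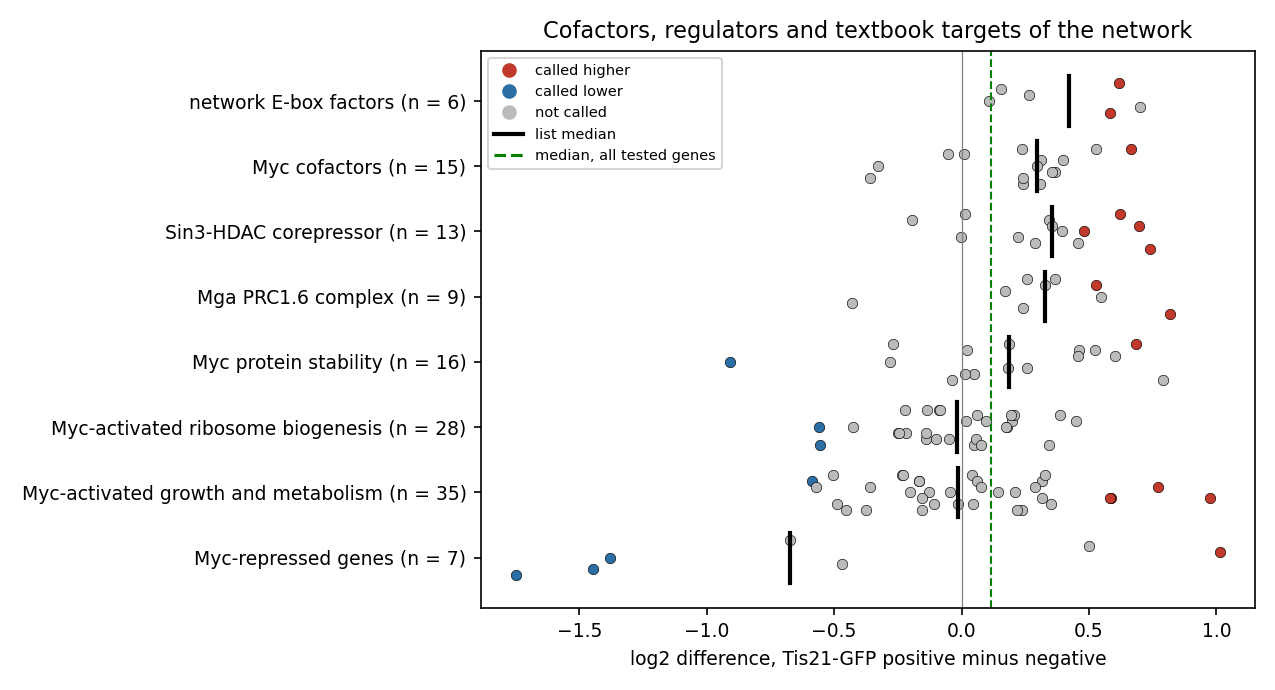
Log2 difference (Tis21-GFP positive minus negative) of each tested gene of the 8 lists around the network, 1 point per gene; coloured points passed the test, black bars are list medians and the dashed line is the median of all tested genes. The Sin3-HDAC list has 4 called genes, all higher, while the activated lists centre at -0.02 and -0.01.

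The canonical E-box was also counted across all tested genes, as a description with no test. Of 10479 tested genes with a promoter in the table, 1201 (11.5%) held CACGTG. Among these 10.6% were called higher and 12.7% lower, with a median difference of 0.09, against 13.2%, 12.4% and 0.12 among the 9278 without it. The E-box was found in 11 of 32 growth and metabolism genes (34.4%) and 6 of 23 ribosome biogenesis genes (26.1%). Of those 11, 3 were called higher and 0 lower. The 111 tested genes with TTTGGCGC, the motif of the Mycn window, had 27.9% called higher and 5.41% lower. The 483 with GGCGGGAA, the motif of the Mxd3 window, had 16.8% and 9.94%. Genes without TTTGGCGC had 12.7% called higher and 12.5% lower, as did genes without GGCGGGAA. The 1470 genes with CAGATG had 14% and 15.2%, against 12.7% and 11.9% without it.

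The arrays had between 28520 and 31277 probes well above background, with correlations across genes from 0.983 to 0.992 within groups and from 0.954 to 0.972 between them. Btg2, the locus of the sorted reporter, was higher in positive cells by 0.77 and Eomes, of intermediate progenitors, by 3.42, and the dorsal telencephalon gene Emx1, higher by 1.12, lay above the 75th percentile on all 6 arrays. Leaving out negative replicate 1 ended the Btg2 call (adjusted p = 0.0623, from 0.0038 elsewhere). All 10 intermediate progenitor markers were called higher (median 2.46). Btg2, the locus of the sorted reporter, is among these 10, so its rise is not separate from the sort. Also called higher were 6 of 10 cortical neuron markers, with 2 lower (median 0.82), and 8 of 10 radial glia markers were called lower (median -0.96). Among all tested genes, 12.8% were called higher and 13.1% lower. All 10 tested microglia and macrophage markers were lower, and their summed signal, in units of the array's 75th percentile, was 4.29 to 7.85 on positive and 14.4 to 18.8 on negative arrays. All 8 tested markers of meninges and mesenchyme were lower (0.646 to 0.950 against 5.74 to 10.8), with Col3a1, Lum, Vtn, Twist1 and Foxc1 not above background on any positive array. Of 7 tested endothelium and pericyte markers, 5 were lower and 0 called higher. But 1 had every positive array above every negative array, an order found in 28.1% of all tested genes. The differences of these 7 markers reached up to 0.45, and their sums were 9.51 to 10.5 on positive and 8.14 to 9.35 on negative arrays. Of the full list, Cdh5, Tek, Pdgfrb, Rgs5, Abcc9 and Kcnj8 were not above background on any positive array. A marker not above background on any positive array could enter the test only through the negative arrays. For such a marker, being lower was set by the filter. Of 6 markers of the ventral telencephalon and interneurons, 1 was lower (sums of 5.96 to 7.76 and 6.84 to 11.6). Many of these markers differed between the same groups as the called members Mycl, Mxd1, Mxd3 and Mxd4 and as Ndrg2, Gas1, Thbs1 and Fbxw7. The part of the marked cell types in those differences was not tested.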

How the data were processed

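Cells, groups and arrays are as described above, with 3 arrays per group. The deposited scanner files hold intensity per spot from Agilent Feature Extraction 10.7.1.1, per the submitters' processing notes and the file headers; the processed intensity is background-subtracted and detrended by that software, without scaling from array to array. A value table that the authors deposited has log2 values, read from the values alone as quantile normalized and uncentred (each column's median 4.67). Its making is not described in the labels or headers, and it served as an alternative.

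Control spots and outlier spots (118 to 191 per array) were left out, spots of a probe were averaged, and the 75th percentile of each array's log2 processed intensity (213 to 341 intensity units) was subtracted. A gene was its brightest probe, tested when all 3 arrays of either group showed it well above background. The brightest probe was chosen anew in each alternative setting, so it could differ between settings. Groups were compared with limma 3.58.1 (R 4.3.3; lmFit, eBayes, group only) and Benjamini-Hochberg adjustment over all tested genes or, separately, probes; the script was tested on simulated data. Differences are positive minus negative. Probes were named through RefSeq GRCm38.p6 accessions (26370 of 55681 probes, 19988 symbols). The number of arrays limits the precision. No spot was saturated (0), and 0 pairs of files were identical. All 6 arrays lay on 1 slide.

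Members, lists and rules were chosen with earlier results of these data known. Named are all members, up to 3 called genes with the smallest adjusted p per list, the 3 genes most like the called member with the largest difference, and Btg2, Eomes and Emx1 (others are marked as named later). A gene that the rule took is not reported here.

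Same-numbered arrays deviated from their group means together across genes (correlations 0.227, 0.133 and 0.374, against at most 0.0588 between other numbers), so the numbers were taken to pair the samples, from the data and the shared labels. Alternatives were normexp (offset 50, on the median spot signal, since the files used here hold no mean signal), quantile normalization, median centring, the percentile over probes detected on all arrays, the authors' values, no filter on dim probes, a variance trend with robust fit, the replicate block, the mean of a gene's probes, and leaving out each array.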

Additional observations from a re-analysis of the deposited data

How the results depend on the processing

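The 1687 genes called higher became 933 when the percentile was taken over detected probes, 1124 with the authors' values, 895 without the filter on dim probes, and 761 to 1732 when 1 array was left out (761 without negative replicate 1, 780 without negative replicate 3 and 1057 without positive replicate 1). The 1716 genes called lower stayed within 1.5 times that count. The share of calls that were higher, 49.6%, was 65.8% with median centring, 29.1% with the percentile over detected probes, 39.6% under quantile normalization, 39.4% with the authors' values, 39.4% without the filter and 55.0% with normexp. The median of all genes, 0.12, moved to 0.30, -0.06, 0.02 and 0.02 under the first 4 of these, and was 0.10 with normexp. The 4 members called higher became 2 without the filter on dim probes and 2 to 4 with 1 array left out (2 without negative replicate 1, negative replicate 3 or positive replicate 1), and no member was called lower in any of the 15 alternatives (0). With the replicate block, 4 members were higher and 0 lower, among 2016 genes higher and 1967 lower; it changed no call of a member or of a gene named from a list, but moved the count called higher from 1 to 4 among Myc stability genes and from 2 to 3 among both the E-box factors and the dorsal telencephalon markers. The difference of Mycn, 0.01, turned to -0.021 with normexp, -0.20 under quantile normalization, -0.16 with the percentile over detected probes and -0.20 with the authors' values, and ran from -0.065 to 0.074 with 1 array left out. That of Max, -0.08, turned to 0.10 with median centring and ran from -0.23 to 0.033 with 1 array left out. The difference of Dido1, 0.71, turned to -0.30 under quantile normalization and with the authors' values, to -0.074 with the mean of its probes, and ran from -0.23 to 0.73 with 1 array left out. The Dido1 probe of the main fit had all positive arrays above all negative arrays, so leaving out 1 array cannot turn its sign. Since the brightest probe was chosen anew in each setting, negative values with 1 array left out belong to another Dido1 probe. That of Mnt, 0.11, turned to -0.17 under quantile normalization and with the authors' values, to -0.066 with the percentile over detected probes, and ran from -0.0077 to 0.19 with 1 array left out. Fewer genes were tested with the filter than without it (13132 against 19972); the cause of the other shifts was not tested. The dim Mxi1 probe, near background, gives no level, and 3 arrays per group limit all values.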
